A study of Mus musculus with 36 samples.

Results

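Genomic imprinting leaves a gene active from only the maternal or only the paternal copy, and many genes under this control set growth before birth and fall silent after it. The genes followed here are 10 imprinted growth genes of the mouse: *Mest*, *Igf2*, *H19*, *Dlk1*, *Peg3*, *Plagl1*, *Grb10*, *Ndn*, *Cdkn1c* and *Igf2r*. They were taken by gene name from the counts and TPM values of a poly(A) RNA-seq series, 10 of 53421 genes listed, and each name matched 1 row. The list, led by *Mest*, was selected on measured RNA levels in these same libraries. Which comparison led to that choice is not recorded, so all differences of *Mest*, with siRNA and with IL-1β, are given as values without a p-value. Where a count of members past the thresholds includes *Mest*, its share in the count is a description. The adjusted p-values of the other members come from fits over all genes and are not independent of the choice of the list.

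The 36 libraries came from a conditionally immortalised, wild-type mouse fibroblast-like chondrocyte line, which the methods describe as released from immortalisation by culture without interferon-γ. Cells were transfected with a pool of non-targeting siRNA (NT) or a pool against *Ift88* (IFT88siRNA), a subunit of the transport complex that builds primary cilia. They then stayed in medium only (0 h) or received 10 ng/ml IL-1β, an inflammatory cytokine, for 1, 2, 4, 8 or 24 h, with 3 libraries for each of the 12 conditions. The sample labels give the siRNA as 50 nM and the methods as 10 nM. The 0 h libraries are the only ones without IL-1β, so that the effect of IL-1β and of time in culture cannot be told apart. All libraries come from 1 line, and nothing states that replicates were separate cultures. The p-values then measure the spread between these libraries, which may be technical.

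Total counts on genes ran from 19337022 to 38304127 per library. The targeted gene *Ift88* was at 9.06 ± 0.361 CPM (counts scaled to a common library size, SD, n = 3) in NT and 2.76 ± 0.155 CPM in IFT88siRNA at 0 h, and was lower in IFT88siRNA at all 6 times, with log2 differences from -2.12 to -1.47. Of 11 chondrocyte markers, 5 averaged 1 CPM or more, *Sox9* and *Col2a1* among them, and 6 stayed under 1 CPM in every library, *Acan* (aggrecan) included. All 9 fibroblast markers averaged 1 CPM or more. The summed chondrocyte markers ran from 88.6 to 543 CPM over the NT conditions and from 103 to 477 CPM over the IFT88siRNA conditions, and the summed fibroblast markers from 2958 to 7754 CPM and from 3306 to 7968 CPM. Between the siRNA groups 8 of 32 tests of chondrocyte markers were called, 4 in each direction, and 2 of 54 of fibroblast markers, beside 1.28% of the tests of all genes. Against 0 h in NT the counts were 23 of 35 and 20 of 45, beside 22.1%. The summed macrophage, endothelial, myoblast and adipocyte markers did not pass 2.92 CPM in any condition. The part of these markers in the results was not tested, and in bulk RNA fewer cells of a type and less RNA per cell cannot be told apart.

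In development the members act on the same process from several sides. *Igf2* encodes a growth factor, *Igf2r* the receptor that removes it to the lysosome, and *Grb10* an adaptor that restrains insulin and insulin-like growth factor receptors. *H19* is a non-coding RNA next to *Igf2*, expressed from the other parental copy. *Plagl1* encodes a zinc-finger transcription factor, *Cdkn1c* an inhibitor of cyclin-dependent kinases, *Dlk1* a membrane protein related to Notch ligands, *Ndn* a protein that holds back the cell cycle, *Peg3* a large zinc-finger protein, and *Mest* an enzyme of the hydrolase fold that resides in the endoplasmic reticulum.

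By position the members fall on 6 chromosomes of GRCm38 (GENCODE annotation). *Mest* lies on chromosome 6 (30723547 to 30748465, plus strand), and *H19* (142575529 to 142578143, minus strand) and *Igf2* (142650766 to 142666816, minus strand) sit close together on chromosome 7. *Cdkn1c* (143458339 to 143461050), *Ndn* (62346569 to 62350262) and *Peg3* (6703892 to 6730431) are on chromosome 7 as well. *Plagl1* is on chromosome 10 (13060504 to 13131694), *Grb10* on chromosome 11 (11930508 to 12038683), *Dlk1* on chromosome 12 (109452823 to 109463336) and *Igf2r* on chromosome 17 (12682406 to 12769664). All but *H19*, a lincRNA, are annotated as protein coding.

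Introns of *Mest* hold the gene of a microRNA, *Mir335* (chr6:30741299-30741396), whose mature sequences are shown because *Mest* leads the list. Exonic sequence of *H19* holds *Mir675*. The sequences are from RefSeq (GRCm38.p6), 5′ to 3′, with the seed (bases 2 to 8) in capitals:
miR-335-5p: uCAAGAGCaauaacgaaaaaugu
miR-335-3p: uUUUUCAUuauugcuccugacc
miR-675-5p: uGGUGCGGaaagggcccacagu
miR-675-3p: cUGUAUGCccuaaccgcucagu
These 4 arms carry 4 different seeds. The rows of *Mir335* and *Mir675* were at 0 counts in all libraries. Poly(A) libraries do not measure mature microRNAs, and no level of either is given.

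The upstream sequences of *Mest* and *Plagl1* are shown since RNA of both genes rose early and fell late in NT. Each is the 250 bases before an annotated start (RefSeq, GRCm38.p6, plus strand), from chr6:30737800-30738049 for *Mest* and chr10:13090582-13090831 for *Plagl1*. Of 3 windows of *Mest* the second is shown; the others held a GC box too, and 7 and 14 CpG. Capitals mark the GC box (GGGCGG, on either strand), the only motif of those searched that was found in them:
Mest: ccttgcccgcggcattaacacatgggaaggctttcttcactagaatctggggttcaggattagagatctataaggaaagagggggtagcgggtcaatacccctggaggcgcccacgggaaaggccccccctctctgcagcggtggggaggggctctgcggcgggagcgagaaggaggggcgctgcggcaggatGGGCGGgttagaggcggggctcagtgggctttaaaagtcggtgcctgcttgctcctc
Plagl1: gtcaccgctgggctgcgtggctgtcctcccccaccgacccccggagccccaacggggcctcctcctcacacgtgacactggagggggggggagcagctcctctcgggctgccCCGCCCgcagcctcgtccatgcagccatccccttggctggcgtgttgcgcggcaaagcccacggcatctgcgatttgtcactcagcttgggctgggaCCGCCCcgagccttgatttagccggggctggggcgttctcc

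Both windows are rich in CpG, a dinucleotide that can be methylated, and no methylation was measured here. They held 14 CpG for *Mest* and 19 for *Plagl1*, against a median of 6 over 32851 windows of the same length. GC content was 62.4% and 70.4%, against a median of 52.4%. The GC box was present in 32.7% of all windows. Neither window held TATAAA (12.4% of windows), TGACGTCA (1.55%), the AP-1 motif TGANTCA (6.75%), the NF-κB motif (7.25%) or the PLAGL1 motif (0.070%), on either strand and with overlapping matches counted. A missing match says only that these letters are not in these windows. Of the 10 members, 8 had at least 1 window in the table, and *H19* and *Cdkn1c* are named only.

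Compared per length, as TPM, the members spanned a wide range. In NT at 0 h *Grb10* was highest at 104 ± 2.69 TPM (SD, n = 3), followed by *Igf2r* (85.2 ± 6.03 TPM), *Plagl1* (46.6 ± 2.48 TPM), *Mest* (29.1 ± 2.25 TPM) and *Ndn* (17.0 ± 0.221 TPM). Lower down were *Cdkn1c* (7.73 ± 1.02 TPM), *Dlk1* (3.89 ± 0.624 TPM), *H19* (1.69 ± 0.0808 TPM), *Igf2* (1.39 ± 0.115 TPM) and *Peg3* (0.0232 ± 0.0231 TPM). No neighbours in this order overlapped between libraries. In IFT88siRNA at 24 h the order had changed: *Ndn* (12.6 ± 0.0527 TPM) and *Mest* (12.6 ± 0.808 TPM) overlapped, as did *Igf2* and *Dlk1*, and *H19* was down to 0.323 ± 0.154 TPM.

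On counts, *Igf2* and *Peg3* were too low for a test in every comparison. *Peg3* had 0 counts in 18 of 36 libraries and at most 5, against a limit of 3 counts that a count of 0 allows (0.0720 to 0.170 CPM, counting error only). *Igf2* had 0 to 6 counts per library, while its TPM lay between 0.799 and 2.20 in all 36 libraries. The 2 files therefore differ for *Igf2*. At 2 h its TPM was 1.15 ± 0.211 in NT and 1.78 ± 0.0353 in IFT88siRNA, without overlap, and the groups overlapped at the other times. No test of the TPM of *Igf2* is given. Of its 5723 exonic bases, 62.8% are shared with *Gm49394*, a gene on the same strand whose row was at 0 counts in every library. A count with default settings leaves out reads that fit more than 1 gene, and the part of this in the low counts of *Igf2* was not tested.

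The counts of some other members also leave out shared sequence. The last exons of *Mest* and *Copg2* overlap on opposite strands over 912 bases, 23.1% of the exonic bases of *Mest*. *Cdkn1c* shares 30.6% with *Gm44732*, an antisense gene at 0 counts in every library, and *H19* shares 9.15% with *Mir675* and 2 other small RNA genes. For *Dlk1*, *Grb10*, *Ndn* and *Igf2r* no exonic base is shared. The counting was without regard to strand by its default settings, so antisense reads cannot be told apart.

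*Mest* was higher in IFT88siRNA before IL-1β and at 24 h, and the siRNA groups overlapped from 1 to 4 h. At 0 h the NT libraries had 24.8, 28.4 and 26.5 CPM and the IFT88siRNA libraries 50.4, 51.8 and 53.3 CPM. Every IFT88siRNA library was above every NT library, and the fold was 1.95 (log2 0.96, SE 0.06). At 1 h the NT libraries had 93.8, 75.9 and 83.5 CPM and the IFT88siRNA libraries 83.5, 76.0 and 93.7 CPM, the groups overlapped, and the log2 difference was -0.01 (SE 0.07). At 2 h and 4 h the groups overlapped too, with log2 differences of 0.08 (SE 0.06) and -0.04 (SE 0.08). At 8 h the NT libraries had 17.9, 16.4 and 14.5 CPM and the IFT88siRNA libraries 22.7, 28.4 and 21.3 CPM, which did not overlap and differed by 0.56 (SE 0.11) on the log2 scale, just under 1.5-fold. At 24 h the NT libraries had 5.20, 5.42 and 5.45 CPM and the IFT88siRNA libraries 12.3, 13.6 and 13.2 CPM, a fold of 2.43 (log2 1.28, SE 0.09). The TPM values gave the same picture at both ends of the course, 29.1 ± 2.25 against 54.6 ± 2.76 TPM at 0 h and 4.95 ± 0.0351 against 12.6 ± 0.808 TPM at 24 h.

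**Figure D1:**
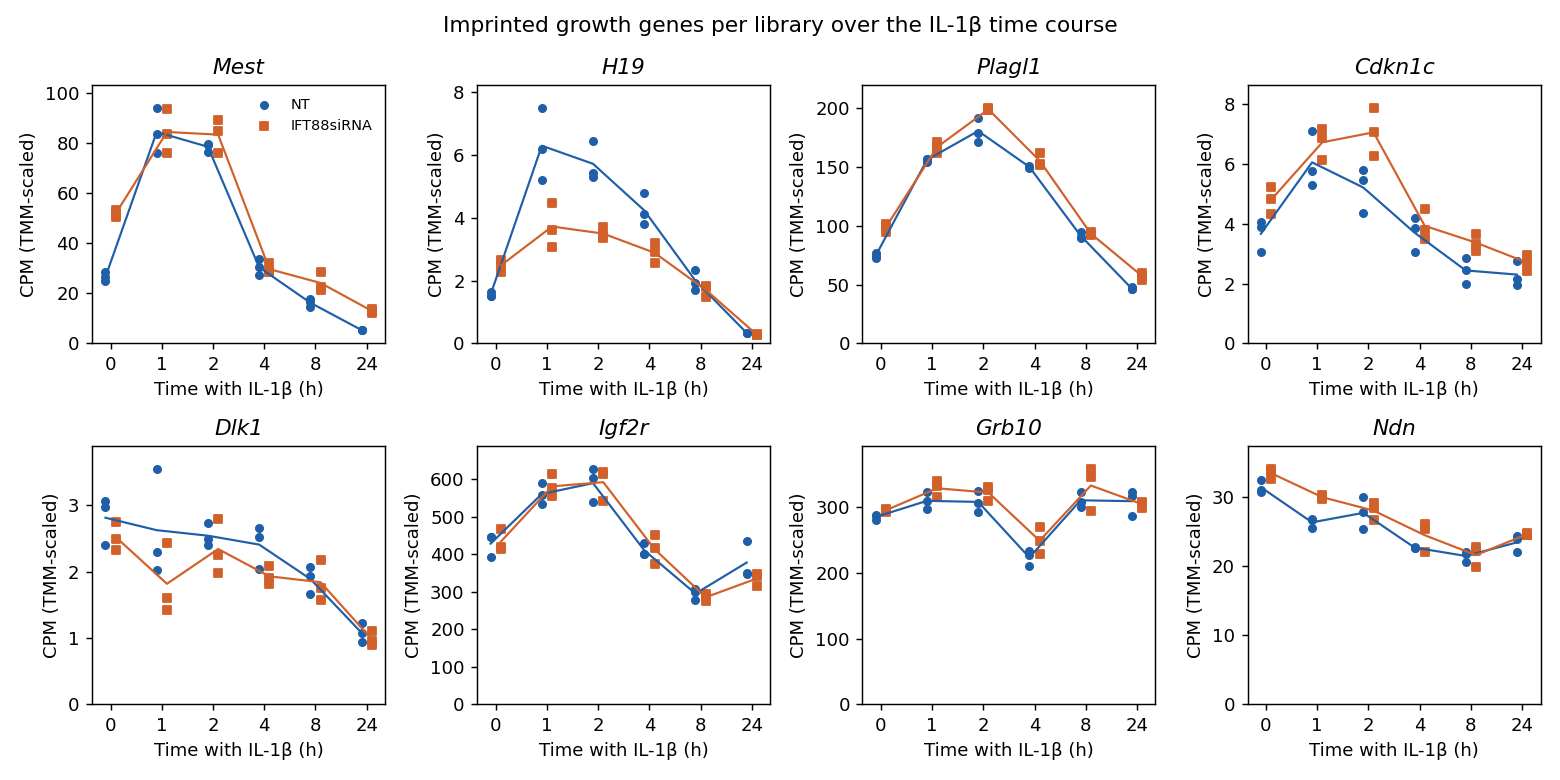
CPM with TMM scaling of 8 members in each of the 36 libraries (points) and the mean of 3 libraries (lines) at 0 to 24 h of IL-1β, in NT (circles) and IFT88siRNA (squares), on axes that start at 0. *Mest* peaked at 84.4 CPM in both groups at 1 h and started from 26.6 CPM in NT and 51.8 CPM in IFT88siRNA, while *Grb10* stayed between 210 and 358 CPM.

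A gene was called where its adjusted p was under 0.05 and its fold over 1.5. At 0 h, 2.23% of the genes tested were called between the siRNA groups, 0.674% higher, and *H19* was called higher among 8 members tested; *Mest* lay past the same thresholds, as a description. At 1 h 2.66% were called, 2.47% lower, and at 2 h 0.496%, 0.462% lower, with *H19* lower at both times. No member was called at 4 h (0.432% of genes) or 8 h (0.692%). At 24 h 1.15% were called, 0.552% higher, and of 7 members tested *Mest* alone lay past the thresholds. Taken over the 47 tests of a member at a time, 5 lay past the thresholds, 3 higher (2 of them *Mest*) and 2 lower in IFT88siRNA, against 1.28% of all gene tests. Nothing is read from this share, since the list may have been drawn from this comparison. The median log2 difference of the members tested was from 0.00 to 0.24 over the 6 times, and that of all genes was within 0.01 of 0.

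*H19*, read from few counts, stood on opposite sides of NT before and after IL-1β. At 0 h it had 1.52, 1.65 and 1.51 CPM in NT and 2.66, 2.29 and 2.5 CPM in IFT88siRNA, 34 to 40 and 65 to 78 counts, and it was higher in IFT88siRNA by 0.67 on the log2 scale (SE 0.17, edgeR adjusted p = 0.00680). At 1 h it had 6.19, 5.20 and 7.48 CPM in NT and 3.62, 3.06 and 4.48 CPM in IFT88siRNA, so that no libraries overlapped and IFT88siRNA was lower (log2 -0.76, SE 0.16, edgeR adjusted p = 0.00326). At 2 h it was lower again (log2 -0.71, SE 0.13, edgeR adjusted p = 0.0183). The values at 4 h and 8 h, -0.56 (SE 0.16) and -0.26 (SE 0.20), did not pass the thresholds. On TPM the mean at 8 h was higher in IFT88siRNA, 1.80 against 1.68 TPM in NT. At 24 h the libraries held 7 to 11 counts each, and no test was made.

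The calls of *H19* were not firm. The call at 0 h was lost with DESeq2 (adjusted p = 0.0557) and without the libraries numbered 1 (0.0653) or 3 (0.0730). The call at 2 h was lost without any of 4 single libraries: NT replicate 1 (adjusted p = 0.0778), NT replicate 3 (0.0681), IFT88siRNA replicate 1 (0.0752) or IFT88siRNA replicate 2 (0.108). On log2(TPM + 1) no siRNA difference of *H19* was called: at 1 h and 2 h the log2 values of -0.59 and -0.71 were past the fold threshold and the adjusted p-values from limma were 0.0822 and 0.218, and at 0 h the value was 0.25.

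*Plagl1* differed with little spread at 0 h and 24 h, by less than 1.5-fold. At 0 h it had 72.3, 76.6 and 74.5 CPM in NT and 101, 94.9 and 99.8 CPM in IFT88siRNA. The groups did not overlap, and the difference of 1.32-fold (log2 0.40, SE 0.04, edgeR adjusted p = 6.81e-07) lay under the 1.5-fold threshold. From 1 h to 8 h its log2 difference was between 0.01 and 0.14 (at 8 h on TPM the mean was lower in IFT88siRNA, 51.7 against 56.3 TPM in NT), and at 24 h it was 0.29 (SE 0.05, edgeR adjusted p = 0.00194).

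*Cdkn1c* was at 3.66 ± 0.531 CPM in NT and 4.80 ± 0.457 CPM in IFT88siRNA at 0 h, a log2 difference of 0.38 (SE 0.13, edgeR adjusted p = 0.0409), which also lay under the fold threshold. Its differences at later times were between 0.07 and 0.44, with adjusted p-values from 0.124 to 0.876. For *Dlk1* the log2 differences were between -0.54 and -0.05 and the libraries of the groups overlapped at every time. Without IFT88siRNA replicate 3 at 1 h the difference of *Dlk1* passed the thresholds (log2 -0.80, edgeR adjusted p = 0.0388). *Grb10*, *Ndn* and *Igf2r* differed by at most 0.15, 0.18 and 0.18 in size on the log2 scale, at SEs of 0.07 or less, and none was called.

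**Figure D2:**
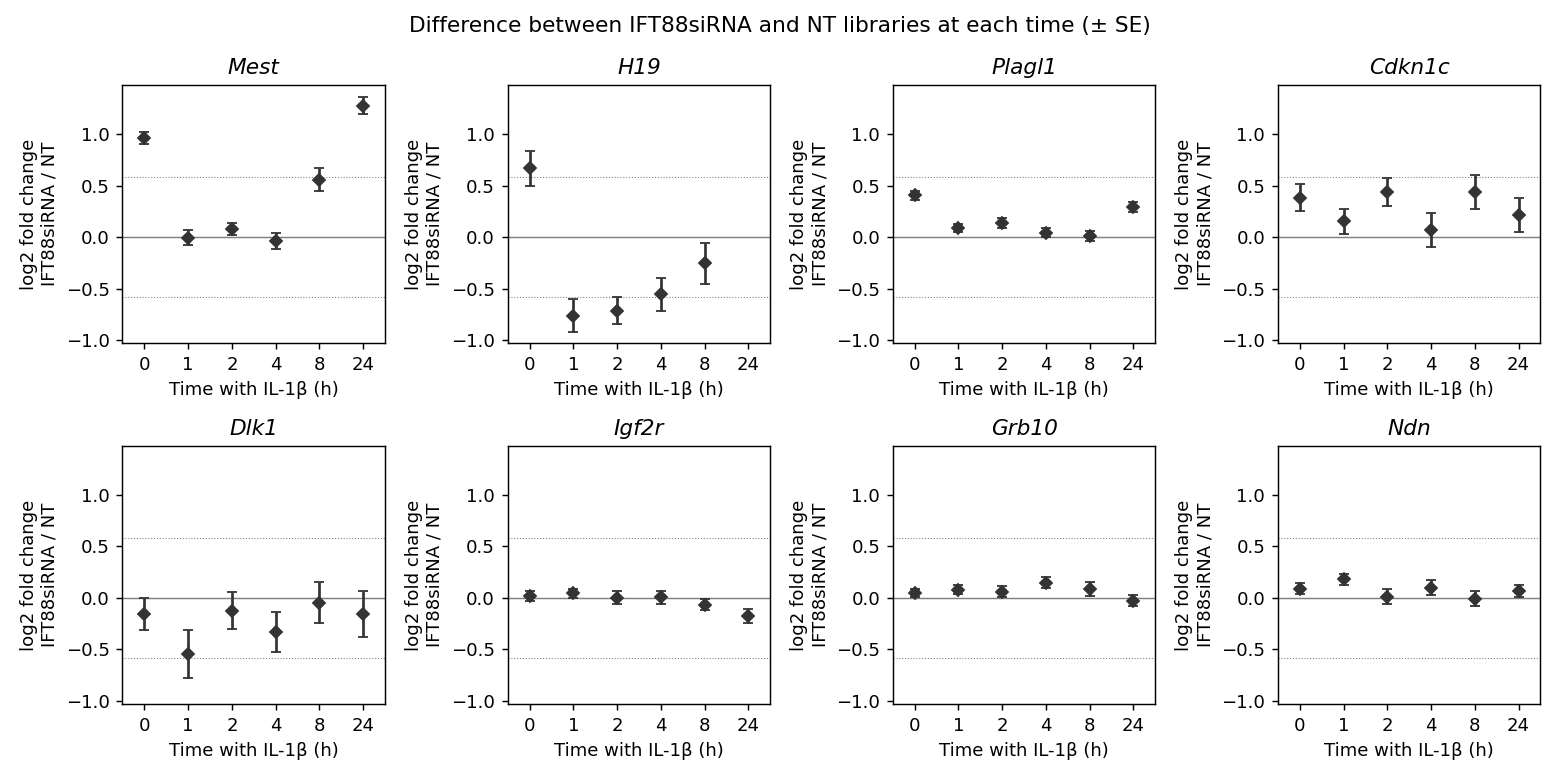
The log2 fold change between IFT88siRNA and NT (± SE, 3 libraries against 3) for 8 members at each time of IL-1β; dotted lines mark 1.5-fold in each direction and *H19* was not tested at 24 h. *Mest* was at 0.96 at 0 h, between -0.04 and 0.08 from 1 to 4 h and at 1.28 at 24 h, while *H19* went from 0.67 at 0 h to -0.76 at 1 h.

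Under IL-1β *Mest*, *H19*, *Plagl1* and *Cdkn1c* were past the thresholds above 0 h at 1 h in NT, and these 4 and *Dlk1* were past them below 0 h at 24 h. *Mest* started at 26.6 ± 1.82 CPM and 1 h later was at 84.4 ± 8.99 CPM, 3.16-fold higher (log2 1.66, SE 0.08), and stood at 78.5 ± 1.70 CPM at 2 h. At 4 h it was at 30.4 ± 3.21 CPM and its libraries overlapped with those at 0 h. It stood at 16.3 ± 1.72 CPM at 8 h and 5.36 ± 0.140 CPM at 24 h, 4.95-fold below 0 h (log2 -2.31, SE 0.10). Between its highest and its lowest mean *Mest* spanned 15.8-fold in NT and 6.49-fold in IFT88siRNA.

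*H19* had its highest mean at 1 h in NT. It rose from 1.56 ± 0.0780 to 6.29 ± 1.14 CPM at 1 h (log2 2.0, SE 0.16, edgeR adjusted p = 2.44e-10), was still raised at 4 h (log2 1.45, SE 0.17), was at 2.0 ± 0.313 CPM at 8 h and fell to 0.336 ± 0.00205 CPM at 24 h (log2 -2.19, SE 0.27, edgeR adjusted p = 2.59e-07). *Plagl1* rose with less spread, from 74.5 ± 2.17 CPM to 156 ± 1.52 CPM (1 h) and then 180 ± 10.2 CPM (2 h, log2 1.27, SE 0.04, edgeR adjusted p = 5.93e-18), and fell to 46.5 ± 0.876 CPM at 24 h (log2 -0.68, SE 0.05). *Cdkn1c* rose at 1 h (log2 0.71, SE 0.16, edgeR adjusted p = 0.000580) and fell at 24 h (log2 -0.67, SE 0.18, edgeR adjusted p = 0.00296); the fall was lost without the libraries numbered 2 (adjusted p = 0.0551).

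The remaining members moved less or later. *Dlk1* had 2.41, 2.97 and 3.06 CPM in NT at 0 h and 0.934, 1.1 and 1.22 CPM at 24 h, a fall by 1.37 on the log2 scale (SE 0.20, edgeR adjusted p = 4.20e-06), with no call before 24 h. *Igf2r* had 428 ± 30.7 CPM before IL-1β, 589 ± 44.9 CPM after 2 h and 295 ± 16 CPM after 8 h, with log2 values of 0.46 and -0.53 that lay under the fold threshold. *Ndn* was between 0.18 and 0.54 below 0 h on the log2 scale at all times, also under the threshold. Some of these falls passed it on TPM, as given in the closing section. *Grb10* had 285 ± 4.23 CPM before IL-1β and 223 ± 11.6 CPM after 4 h (log2 -0.34, SE 0.05), and within 0.13 of 0 h at the other times.

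In NT 4 of 8 members lay past the thresholds at 1 h, where 18.7% of all tested genes were called and 9.22% were higher. At 2 h 3 did (27.3% of genes, 13% higher) and at 4 h 2 (28.7%, 16.3% higher), all of them rises. At 8 h only *Mest* did (19.7% of genes, 7.87% lower) and at 24 h 5 members (16.3%, 9.71% lower), all of them falls. The median log2 change of the 8 members was 0.55 at 1 h and -0.68 at 24 h, and that of all genes was -0.01 and -0.02. In all, 15 of 40 tests of a member at a time lay past the thresholds in NT, beside 22.1% of the tests of all genes. Of the 15, 4 were of *Mest*, as a description. Nothing is read from this share, since the list was selected on these same libraries.

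In IFT88siRNA *Mest* started from a higher level and was past the thresholds below 0 h from 4 h on. *Mest* started at 51.8 ± 1.44 CPM and had 84.4 ± 8.89 CPM after 1 h, a fold of 1.62 (log2 0.70, SE 0.08), and 83.3 ± 6.64 CPM after 2 h. By 4 h it was at 29.7 ± 2.04 CPM, already under 0 h (log2 -0.81, SE 0.09), and it reached 13 ± 0.680 CPM at 24 h (log2 -1.99, SE 0.09). *H19* went from 2.48 ± 0.187 to 3.72 ± 0.715 CPM at 1 h, a log2 value of 0.58 that lay just under the fold threshold. At 2 h the value was 0.49, also under it, and *H19* fell to 0.277 ± 0.0135 CPM at 24 h (log2 -3.15, SE 0.22, edgeR adjusted p = 3.05e-11).

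*Plagl1* rose at 1 h, 2 h and 4 h in IFT88siRNA (log2 0.75, 1.01 and 0.65, the last under the fold threshold on TPM, 0.43, and with upper-quartile scaling, 0.54) and fell at 24 h (log2 -0.79, SE 0.05). *Cdkn1c* and *Dlk1* fell at 24 h by 0.84 (SE 0.13) and 1.37 (SE 0.20) on the log2 scale. At 8 h *Igf2r* fell by 0.61 (SE 0.07) and *Ndn* by 0.63 (SE 0.06); the former call was lost without the libraries numbered 2 and the latter without those numbered 3. *Grb10* had no call. At 1 h 2 of 8 members lay past the thresholds (15.1% of genes, 6.82% higher) and at 2 h 2 (25.6%, 12.4% higher), all of them rises. At 4 h there was 1 rise and 1 fall (29.3% of genes, 16% higher and 13.3% lower). At 8 h 3 members fell (17.6%, 7.11% lower) and at 24 h 5 (14.2%, 7.87% lower), which gives 5 rises and 9 falls over the 40 tests. Of these, 2 rises and 3 falls were of *Mest*, as a description, and nothing is read from these counts.

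**Figure D3:**
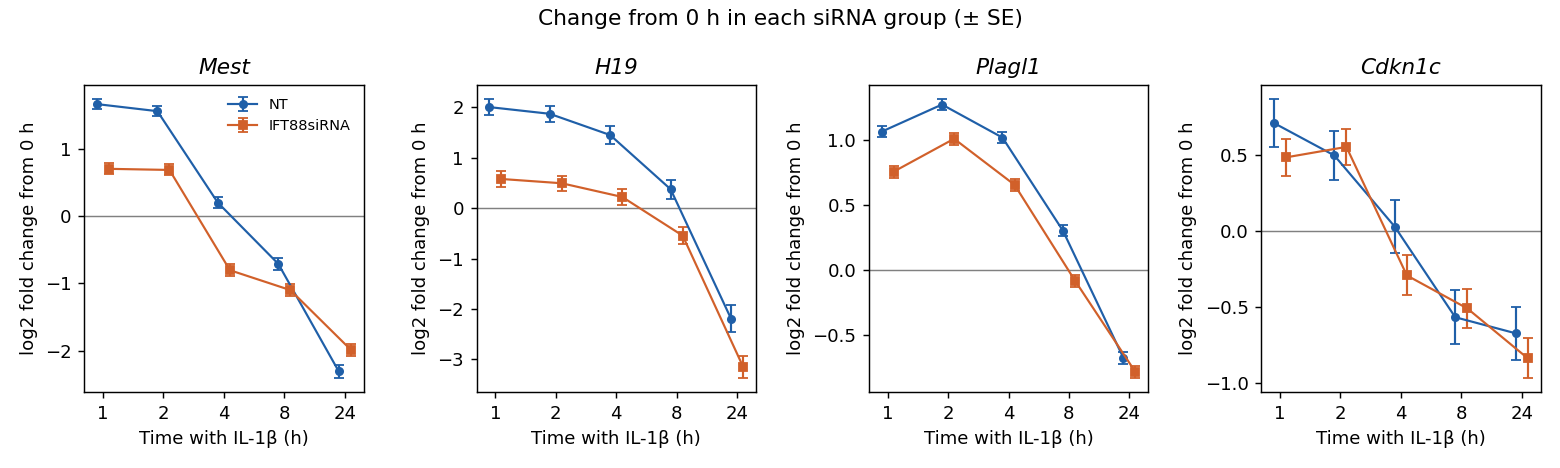
The log2 fold change from 0 h (± SE) of *Mest*, *H19*, *Plagl1* and *Cdkn1c* at 1 to 24 h of IL-1β in NT (circles) and IFT88siRNA (squares). *H19* reached 2.0 at 1 h in NT and 0.58 in IFT88siRNA, and *Mest* 1.66 and 0.70.

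The change from 0 h was then compared between the siRNA groups within all 36 libraries. This difference equals the siRNA difference at a time less that at 0 h, so the 5 times share the 6 libraries of 0 h. For *Mest* it was -0.96 at 1 h (SE 0.12), -0.88 at 2 h (SE 0.12), -0.996 at 4 h (SE 0.13), -0.38 at 8 h (SE 0.13) and 0.32 at 24 h (SE 0.15). The libraries of the groups overlapped in *Mest* at 1 to 4 h and stood apart at 0 h. For *H19* the difference was -1.43 at 1 h (SE 0.22, edgeR adjusted p = 0.000117), -1.38 at 2 h (SE 0.22, edgeR adjusted p = 0.000309) and -1.22 at 4 h (SE 0.23, edgeR adjusted p = 0.00219). All 3 calls of *H19* were lost without the libraries numbered 1, with adjusted p-values of 0.0671, 0.102 and 0.214.

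For *Plagl1* the smaller change in IFT88siRNA lay between -0.38 and -0.27 from 1 h to 8 h (SE 0.06, adjusted p-values from 0.000224 to 0.0145), under the fold threshold. No difference in response was called for *Cdkn1c*, *Dlk1*, *Grb10*, *Ndn* or *Igf2r*. *Grb10*, *Ndn* and *Igf2r* differed by at most 0.10, 0.10 and 0.19 in size. Of 40 tests 6 lay past the thresholds, all lower in IFT88siRNA, 3 of *Mest* as a description and 3 of *H19*. Among all genes 0.598% were called at 1 h (0.491% lower), 0.245% at 2 h (0.215% lower), 0.311% at 4 h (0.269% lower), 0.275% at 8 h and 0.132% at 24 h.

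Of 59 other imprinted genes listed, 31 were tested. Between the siRNA groups 2 of 184 tests were called, near the 1.28% over all genes: *Slc22a18*, a transporter named after its values were seen, higher at 1 h (log2 0.83, SE 0.22) and *Dcn*, the matrix proteoglycan decorin, lower at 24 h (log2 -0.68, SE 0.05). The median log2 difference of the list at 0 h was 0.06. With IL-1β, 33 of 155 tests were called in NT, 18 higher and 15 lower, beside 22.1% for all genes, and 36 of 155 in IFT88siRNA beside 20.4%. The retrotransposon-derived *Peg10* rose and fell at times like those of *Mest*: NT had 126 CPM before IL-1β, 335 CPM after 1 h (log2 1.40) and 72.6 CPM after 24 h (log2 -0.80). *Nnat*, which encodes a small membrane protein of neurons and fat, rose at 1 h (log2 1.25) and fell at 24 h (log2 -0.78) in NT at under 3 CPM.

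Other members of that list rose late or fell. *Dcn* rose from 10.0 to 504 CPM in NT by 24 h (log2 5.65) and from 14.2 to 315 CPM in IFT88siRNA (log2 4.47), and its response differed at 8 h (-0.80, SE 0.11) and 24 h (-1.18, SE 0.11, edgeR adjusted p = 1.44e-08). *Sfmbt2*, a Polycomb-type repressor, rose by 2.60 at 24 h, *Ampd3*, an AMP deaminase, by 1.35 at 24 h, and *Atp10a*, a lipid flippase, by 1.94 at 4 h in NT. The antisense RNA *Kcnq1ot1* fell by 1.36 at 4 h in NT. *Dio3*, which inactivates thyroid hormone, fell by 0.99 at 1 h and rose by 0.90 at 8 h in NT, and its response was higher in IFT88siRNA at 24 h (0.61). In all, 16 genes of the list were called at least once. No difference in response was called for *Peg10* or *Nnat*.

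The gene that shares its last exon with *Mest*, *Copg2*, a subunit of the vesicle coat, had smaller differences. *Copg2* was at 60.7 ± 1.3 CPM in NT and 70.3 ± 1.9 CPM in IFT88siRNA at 0 h (log2 0.21, SE 0.04) and at 53.8 ± 2.4 and 58.8 ± 1.2 CPM at 24 h, with no siRNA difference called. At 1 h in NT it had 80.7 CPM (log2 0.41, under the fold threshold). It fell at 4 h in NT by 0.60 and in IFT88siRNA by 0.81. Of 5 other genes near *Mest*, 2 had enough counts for a test. *Cep41*, which encodes a ciliary and centrosomal protein, was not called in any comparison and stood at 21.9 CPM in NT and 24.2 CPM in IFT88siRNA at 0 h. *Cpa4*, a carboxypeptidase at a mean of 1.21 CPM or less, fell by 1.32 at 24 h in NT and by 0.85 at 4 h in IFT88siRNA.

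The next list holds genes that handle insulin-like growth factors outside the cell and genes that act below their receptors. Binding proteins hold the factors, the proteases *Pappa* and *Pappa2* release them, and *Stc1* and *Stc2* inhibit these proteases. Of 25 genes listed, 22 were tested. The list was chosen with earlier results of these data known, so nothing is read from its shares of calls. The siRNA difference was called in 6 of 132 tests in 3 genes, 1 higher and 5 lower, beside 1.28% of the tests of all genes. *Igfbp5* was higher in IFT88siRNA at 0 h, at 4.99 ± 0.29 CPM in NT and 9.83 ± 0.81 CPM in IFT88siRNA (log2 0.98, SE 0.10, edgeR adjusted p = 3.67e-07). *Pappa2* was lower at 1, 2, 4 and 8 h, with log2 values of -0.68, -1.05, -1.02 and -0.87, and *Stc2*, named after its values were seen, was lower at 0 h (log2 -0.69, SE 0.17).

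With IL-1β, 43 of 110 tests of this list were called in NT (25 higher, 18 lower) and 45 of 110 in IFT88siRNA (24 higher, 21 lower), beside 22.1% and 20.4% of the tests of all genes. *Igfbp5* rose to 31.5 ± 1.0 CPM at 1 h in NT (log2 2.65) and fell to 0.808 ± 0.27 CPM at 24 h (log2 -2.62). *Pappa* rose from 16.1 to 47.1 CPM at 1 h (log2 1.55) and *Stc1* from 8.56 to 29.7 CPM (log2 1.79) in NT. *Grb14*, a relative of *Grb10*, rose by 2.82 at 24 h, *Igfbp4* by 2.19 at 8 h, while *Irs1*, the docking protein of the receptors, fell by 1.78 at 2 h and *Igfbp2* by 1.73 at 24 h in NT. *Pappa2* fell by 1.55 at 24 h in NT. In all, 13 genes of the list were called at least once.

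The response was lower in IFT88siRNA in 10 of 110 tests of the list and higher in none, in 4 genes, beside 0.312% of the tests of all genes. Nothing is read from this share either, and the tests of a gene at several times share the libraries of 0 h. Among all genes, too, most calls were lower, 82 of 100 at 1 h. The response was lower for *Igfbp5* at 1, 2, 4 and 8 h (-0.82, -0.77, -0.95 and -1.31, the last with SE 0.17 and edgeR adjusted p = 1.92e-05). For *Pappa* it was lower at 1 h (-0.65) and 2 h (-0.59), for *Stc1* at 1, 2 and 4 h (-0.62, -0.66 and -0.78), and for *Igfbp7*, chosen for mention after its values were seen, at 1 h (-0.68). As with *Mest*, the levels of *Igfbp5* and *Stc1* at 1 h were close in the 2 groups (31.5 ± 1.0 and 35.2 ± 4.3 CPM, 29.7 ± 1.1 and 28.9 ± 1.6 CPM) and those at 0 h were apart (for *Stc1* 8.56 ± 1.09 and 12.8 ± 0.215 CPM). *Pappa* had the opposite form, close at 0 h (16.1 ± 0.92 and 18 ± 2.0 CPM) and apart at 1 h (47.1 ± 0.77 and 33.6 ± 0.95 CPM).

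**Figure D4:**
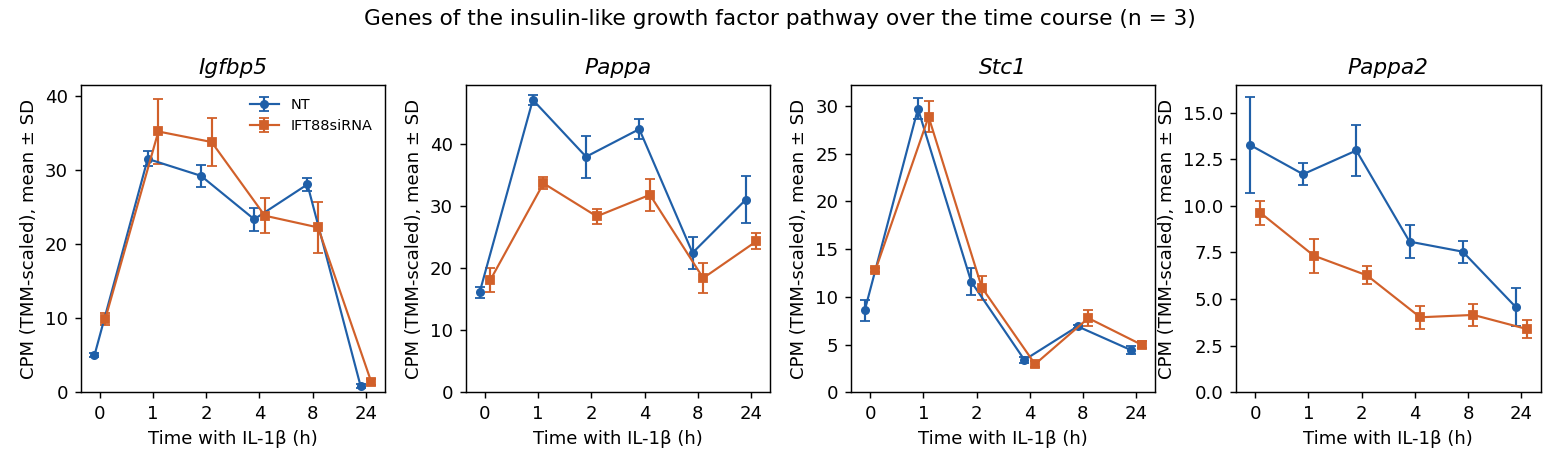
Mean CPM (± SD, 3 libraries) of 4 genes of the insulin-like growth factor pathway at 0 to 24 h of IL-1β in NT (circles) and IFT88siRNA (squares), on axes that start at 0. *Igfbp5* started at 4.99 CPM in NT and 9.83 CPM in IFT88siRNA, and *Pappa* peaked at 47.1 and 33.6 CPM at 1 h.

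Genes that work with single members were not called in any siRNA comparison (0 of 96 tests in 16 genes by edgeR) and not in any response (0 of 80). Over all genes 1.28% and 0.312% of such tests were called, and at shares this low nothing is read from these counts. With IL-1β 27 of 80 tests were called in NT and 26 of 80 in IFT88siRNA, beside 22.1% and 20.4% over all genes. *Plaur*, whose protein binds the IGF2 receptor, rose from 27.9 to 195 CPM at 2 h in NT (log2 2.80). The cyclin *Ccnd1*, whose kinase partners *Cdkn1c* can inhibit, fell from 333 to 104 CPM at 8 h (log2 -1.67). *Notch1* fell by 0.99 at 2 h and its ligand *Jag1* by 1.31 at 4 h, while the Notch target *Hes1* rose by 1.82 at 2 h and fell by 1.91 at 24 h. *Lrp6*, a Wnt co-receptor, fell by 1.14 at 4 h. The other mannose-6-phosphate receptor, *M6pr*, rose by 0.76 at 4 h, and *Cdkn1a* fell by 0.77 at 8 h.

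Since several members restrain cell division, 6 proliferation markers were read beside them. None was called between the siRNA groups in 36 tests, beside 1.28% of the tests of all genes. At a share this low the count does not say that the markers were unchanged. Their summed level ran from 977 to 1646 CPM over the NT conditions and from 958 to 1600 CPM over the IFT88siRNA conditions. Of 30 tests against 0 h, 9 were called in NT and 8 in IFT88siRNA, all lower, beside 22.1% and 20.4% over all genes. Their part in the course of the members was not tested.

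Over the 12 condition means, on the log2 CPM scale, *Mest* followed *Cdkn1c* (r = 0.95), *Plagl1* (r = 0.88) and *H19* (r = 0.86) most closely among the members, then *Igf2r* (0.79), *Dlk1* (0.72), *Ndn* (0.56) and *Grb10* (0.11). Among 3496 genes with a mean of at least 5 CPM and a range of at least 1 log2 unit, the 5 most like *Mest* were *Fras1* (r = 0.99), *Ptprq* (0.98), *Tmtc1* (0.98), *Paqr4* (0.98) and *Clec11a* (0.98). These are descriptions: the 12 points share a cell line and 2 time courses, and many genes rose early and fell late. The order depended on the measure. On log2(TPM + 1) *Fras1* ranked 141 (r = 0.91), *Tmtc1* 24, *Paqr4* 13, *Ptprq* 6 and *Clec11a* 4. *Fras1* encodes an extracellular matrix protein and *Clec11a* a secreted growth factor.

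The 5 genes also stood higher in IFT88siRNA at 0 h, by less than *Mest*. The log2 difference was 0.42 for *Fras1*, 0.57 for *Ptprq*, 0.39 for *Tmtc1*, 0.35 for *Paqr4* and 0.39 for *Clec11a*, none past the fold threshold. At 24 h *Fras1* (0.69, edgeR adjusted p = 0.0264) and *Ptprq* (0.71, edgeR adjusted p = 4.63e-05) passed it. These libraries entered the choice of the genes, so the values describe them and test nothing.

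**Figure D5:**
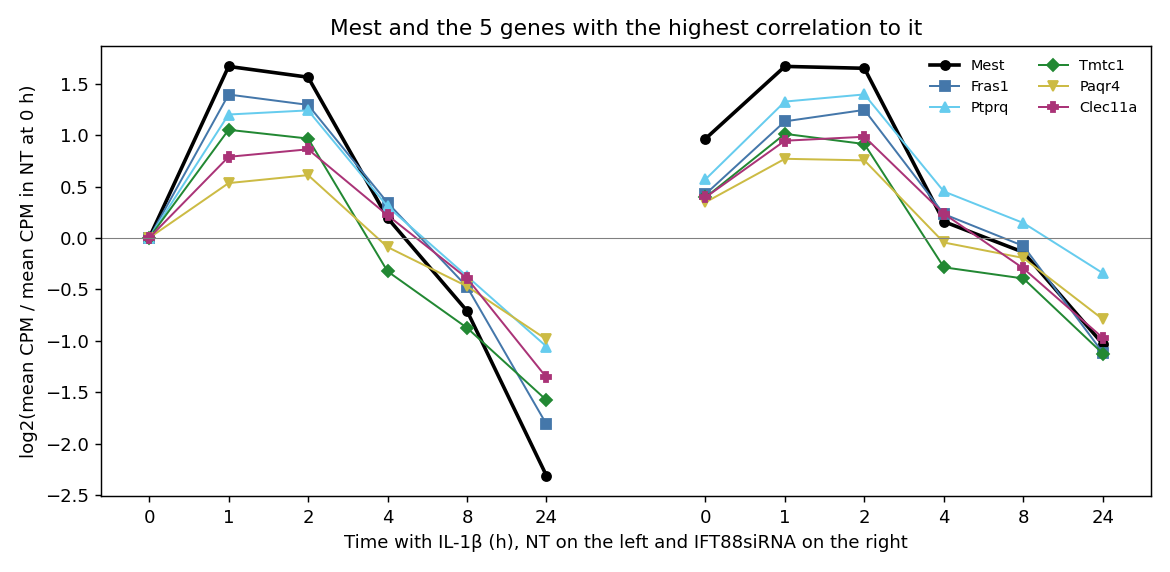
Mean CPM of *Mest* (thick line) and of the 5 genes with the highest correlation to it, as log2 of the ratio to NT at 0 h, over 0 to 24 h of IL-1β in NT (left) and IFT88siRNA (right). All 6 were highest at 1 or 2 h and lowest at 24 h within each group, and *Mest* had the widest course.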

How the data were processed

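Poly(A) RNA of 36 libraries was measured, 3 for each of 12 conditions, with groups taken from the sample labels. The authors aligned reads to GRCm38 with HISAT2 2.1.0 and deposited raw counts per gene from featureCounts (Subread 1.6.3, default settings in the methods). The authors also deposited TPM per gene from Salmon 0.9.1. Reads carry no molecular identifiers, so a limit of 3 counts covers counting error only.

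Tests on counts used edgeR 4.0.16 in R 4.3.3 (TMM scaling, filterByExpr, two-sided quasi-likelihood F-tests, Benjamini-Hochberg adjustment over all genes tested). A call needed an adjusted p under 0.05 and a fold over 1.5. The siRNA groups were compared at each time in 6 libraries, IL-1β times with 0 h in the 18 libraries of a group, and responses in all 36. CPM used TMM factors over all libraries (0.892 to 1.12). The standard error is the log2 change divided by the square root of F. Replicates of a condition differed by more than sampling noise (chi-square per degree of freedom 1.71 to 10.9), so none was merged. Replicate numbers were not used as pairs.

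Alternatives were DESeq2 1.42.0, other size factors, no count filter, no fold threshold, 1 model, a replicate block, left-out libraries, and limma 3.58.1 on log2(TPM + 1) or log2(TPM + 0.1). The steps were tested on simulated data, with changes set only in genes at higher levels and the same spread for all genes. Recovery of changes in low members such as *H19* was not covered by it. The members and all gene lists were chosen with earlier results of these data known. All members are named; from a list, up to 8 called genes with the largest change; and the 5 genes most like *Mest*. Figures used matplotlib 3.10.9.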

Additional observations from a re-analysis of the deposited data

Results flagged for a closer look

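For *H19* the difference between the siRNA groups in the change from 0 h passed the thresholds within all 36 libraries. Values of the same kind stood out for *Mest*. For *Mest* the log2 change in IFT88siRNA less that in NT was -0.96 at 1 h, -0.88 at 2 h and -0.996 at 4 h. *Mest* may have been chosen for such values, and they are given as a description. For *H19* the differences were -1.43 at 1 h, -1.38 at 2 h and -1.22 at 4 h, and all 3 calls were lost without the libraries numbered 1. *H19* belongs to the same list, so its adjusted p-values are not independent of the choice of that list. Its differences also include the siRNA difference at 0 h, whose call was lost with DESeq2 and without the libraries numbered 1 or 3.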

How the results depend on the processing

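No call of a member reversed its direction under any alternative. The siRNA calls, 5 in all, became 10 with no fold threshold and 2 on TPM with limma under each of 3 settings, and left-out libraries gave 3 to 6. The NT calls under IL-1β, 15, became 31 with no fold threshold, and the IFT88siRNA calls, 14, became 31; left-out replicates gave 15 to 16 and 15 to 17. The response calls, 6, became 10 with no fold threshold, 4 or 5 on TPM with limma, and 3 to 6 without a replicate. The cause was not tested beyond the looser threshold and the fewer libraries. Of the 5 genes most like *Mest*, 1 stayed among the first 5 on log2(TPM + 1).

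With the replicate block there were 5, 15, 14 and 7 calls, the added one being *H19* at 8 h in the response (edgeR adjusted p = 0.0296). On log2(TPM + 1) the same difference was -0.18 and was not called. Same-numbered libraries correlated over 0.1 in 2 of 48 pairs. Counting noise lowers such correlations, so these values cannot exclude a pairing, and the numbers were not used as pairs.

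On TPM the median of all genes moved to as low as -0.25 (log2), and to -0.14 with upper-quartile scaling. With that scaling *Cdkn1c*, *Dlk1* and *Ndn* at 8 h in NT were called too (-0.61, -0.61 and -0.59). In NT the calls were 9 higher and 9 lower on log2(TPM + 1), against 9 and 6, and in IFT88siRNA 2 and 9, against 5 and 9. The added falls in NT were *Grb10* and *Ndn* at 4 h (-0.60 and -0.65) and *Igf2r* at 8 h (-0.63). Relative to the median of all genes they were at -0.38, -0.43 and -0.54. *Mest* in IFT88siRNA then missed the fold threshold at 1 h and 2 h (0.55 and 0.43, or 0.69 and 0.62 above the median of all genes). On log2(TPM + 1) *Cdkn1c* in IFT88siRNA at 24 h (-0.57) and the response of *H19* at 4 h (-0.67, adjusted p = 0.0876) were lost too. On log2(TPM + 0.1) the calls of the response of *H19* at 1 h (-1.10) and 4 h (-0.91) were lost. *Mest* at 8 h between siRNA groups passed the fold threshold without IFT88siRNA replicate 1 (0.61) or 3 (0.64) and with no count filter (0.59). A member at 10 counts per library, such as *H19* at 24 h, is at the limit of this depth.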
